A study of Oryza sativa Indica Group with 2 samples.

Results

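The KNOX and BELL homeobox genes described here are 6 rice genes named by locus, 4 of the KNOX class (*OSH1*, *OSH15*, *OSH71* and *OSH6*) and 2 of the BELL class (*qSH1* and *SH5*), of 55337 loci in the expression table. Every row whose identifier starts with 1 of these loci was taken, which gave 8 transcript models, and the values of the models of a locus were added. They were measured by sequencing of poly(A) RNA. The RNA was taken from the spikelets of young panicles of *Osam1* mutant plants and wild-type plants of *Oryza sativa* Indica Group, with 1 library per genotype. The *Osam1* mutant was induced by gamma rays in the *indica* variety Zhongxian 3037 and carries a premature stop codon in *OsAM1*, caused by the loss of 2 nucleotides from an exon, and Zhongxian 3037 itself was the wild type. Plants of both genotypes were grown in a paddy field, their ages are not given in the labels, and the RNA of each library came from spikelets of several panicles. The unit is FPKM, fragments counted on a transcript, taken relative to its length and to the mapped total of its library. Because each genotype is 1 library of pooled spikelets, no value below has a measured error and no difference could be tested.

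Both homeobox classes belong to the TALE superclass, whose homeodomain has an extra loop between its first and second helix. KNOX proteins keep cells of the shoot and inflorescence meristems undetermined, and they work as heterodimers with BELL proteins, which carry the complex to DNA. In the rice panicle, KNOX and BELL genes are known for the maintenance of the inflorescence meristem and for the abscission zone at the base of the spikelet, the cell layer through which mature grains are shed. The 6 genes thus include both kinds of partner in the same tissue.

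The libraries are named here by the labels of the submitters, and every direction rests on those labels. The assignment could not be checked with the mutated gene, since the sources used here pair *OsAM1* with no locus. The heading of the column labelled *Osam1* ends in capital letters (AA) and that of the column labelled wild type in small letters (aa). In the ratios of low values, which fall on steps of whole fragments, the wild-type-labelled library held 2.37 times as many fragments as the *Osam1*-labelled library, whereas the study describes its *Osam1* library as the larger, by a smaller factor that 2.37 matches under neither assignment of the labels. Some directions that the study gives for its own genes appeared to go with the opposite assignment of the columns. They were not tallied here, so how many go with each assignment is not known. The assignment is not settled. An exchange of the labels would turn round each direction below and leave the size of each ratio as it is. The germ-line gene *MEL1* had 22.1 FPKM in the *Osam1*-labelled library and 19.6 FPKM in the wild-type-labelled library, so a germ-line transcript was present in both.

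All 6 genes were expressed in both libraries. Between the libraries, *OSH15*, *OSH6* and *SH5* had higher values in the *Osam1*-labelled library, all within 2-fold, whereas *qSH1* and *OSH71* were lower in it by more than 2-fold. The direction and size at *OSH1* depended on how its transcript models were joined. The widest difference was that of *qSH1*, and the narrowest among the genes with 1 transcript model was that of *OSH6*. Ratios are given as log2((FPKM + 1) in the *Osam1*-labelled library / (FPKM + 1) in the wild-type-labelled library), and a gene counted as past 2-fold at an absolute value of at least 1.

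**Figure D1:**
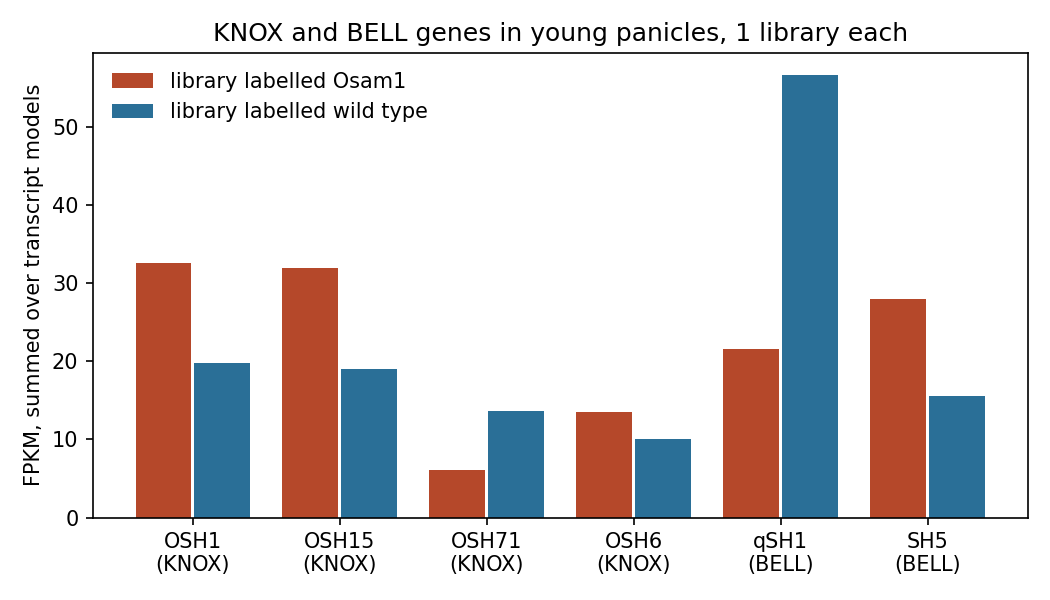
FPKM of each gene (bars from 0, summed over transcript models) in the *Osam1*-labelled library and the wild-type-labelled library, 1 library each, so that no error bars can be drawn. *qSH1* has the tallest bar, 56.6 FPKM in the wild-type-labelled library, and *qSH1* and *OSH71* are the genes whose bar is lower in the *Osam1*-labelled library.

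*OSH1* (LOC_Os03g51690, chromosome 3), the rice counterpart of maize *KNOTTED1*, is required to keep the shoot meristem after germination. Its 3 transcript models summed to 32.6 FPKM in the *Osam1*-labelled library and 19.8 FPKM in the wild-type-labelled library, a log2 ratio of 0.70. It had the highest sum of the 6 genes in the *Osam1*-labelled library, where 71.5% of the loci above 0 had lower values, against 60.9% in the wild-type-labelled library. This sum conceals transcript models that went in opposite directions. Model 1 and model 2 each had 16.3 FPKM in the *Osam1*-labelled library and 2.29 FPKM in the wild-type-labelled library, a log2 ratio of 2.39. Model 3 was listed at 0 in the *Osam1*-labelled library and had 15.2 FPKM in the wild-type-labelled library. Model 3 therefore made up 0% of the *OSH1* sum in the *Osam1*-labelled library and 76.8% in the wild-type-labelled library. The values of models 1 and 2 are equal in both libraries, so that the sum may hold the same fragments more than once.

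The *OSH1* ratio depended on how its models were joined. With equal models counted once, an alternative chosen after seeing the data, *OSH1* had 16.3 FPKM in the *Osam1*-labelled library and 17.5 FPKM in the wild-type-labelled library, a log2 ratio of -0.094. With the highest model of each library it had 16.3 FPKM in the *Osam1*-labelled library and 15.2 FPKM in the wild-type-labelled library, a log2 ratio of 0.097, and with the first listed model alone the log2 ratio was 2.39. No direction of the *OSH1* locus can thus be read from these values. Such a pattern was common in the table, as models of a single locus passed 2-fold in both directions at 19.9% of the 5960 loci with several models and a value above 0. Models with equal values above 0 were found at 25.2% of the same loci. The other 5 genes have 1 transcript model each in the table.

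**Figure D2:**
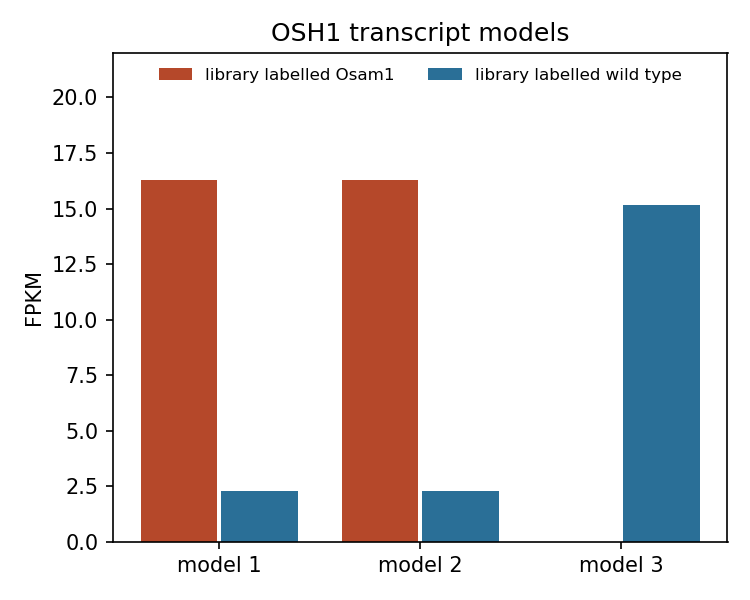
FPKM of the 3 transcript models of *OSH1* in the *Osam1*-labelled library and the wild-type-labelled library (bars from 0, 1 library each). Models 1 and 2 have equal bars, 16.3 FPKM in the *Osam1*-labelled library and 2.29 FPKM in the wild-type-labelled library, and model 3 has a bar only in the wild-type-labelled library, at 15.2 FPKM.

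*OSH15* (LOC_Os07g03770, chromosome 7), loss of which shortens the internodes of rice, had 31.9 FPKM in the *Osam1*-labelled library and 19.1 FPKM in the wild-type-labelled library. Its log2 ratio of 0.71 was within 2-fold, and 76.5% of the 7427 loci with a mean in the range of the 6 genes, 9.88 to 39.1 FPKM, had a lower ratio. Since *OSH15* has a single model, its level does not carry the doubt of *OSH1*. With equal models counted once, or with the highest model, *OSH15* rather than *OSH1* had the highest level in the *Osam1*-labelled library.

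*OSH6* (LOC_Os01g19694, chromosome 1), a class I KNOX gene whose expression outside its usual place alters leaf form, had 13.5 FPKM in the *Osam1*-labelled library and 10.1 FPKM in the wild-type-labelled library. Its log2 ratio of 0.39 was the smallest in size among the 5 genes with 1 model. In the wild-type-labelled library *OSH6* had the lowest level of the 6 genes.

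*OSH71* (LOC_Os05g03884, chromosome 5), also known as *Oskn2*, was lower in the *Osam1*-labelled library, unlike the KNOX genes *OSH15* and *OSH6*. It had 6.14 FPKM in the *Osam1*-labelled library and 13.6 FPKM in the wild-type-labelled library, a log2 ratio of -1.03, just past 2-fold. In the *Osam1*-labelled library it was the lowest of the 6 genes, above 34.1% of the loci above 0, and in the wild-type-labelled library it stood above 52.4% of them. Relative to *OSH6*, *OSH71* had a level of 0.454 in the *Osam1*-labelled library and 1.35 in the wild-type-labelled library, so that the order of these KNOX genes differed between the libraries.

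*SH5* (LOC_Os05g38120, chromosome 5) is a BELL gene that promotes the abscission zone and represses lignin deposition in the pedicel, and its protein binds OSH15. It had 27.9 FPKM in the *Osam1*-labelled library and 15.6 FPKM in the wild-type-labelled library. Its log2 ratio of 0.80 was within 2-fold, and 79.1% of the loci with a mean in the range of the 6 genes had a lower ratio.

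*qSH1* (LOC_Os01g62920, chromosome 1) is the BELL gene in which a regulatory change reduced seed shattering in *japonica* rice, and it acts in the abscission layer. It had 21.6 FPKM in the *Osam1*-labelled library and 56.6 FPKM in the wild-type-labelled library, a log2 ratio of -1.35. Of the loci with a mean in the range of the 6 genes, 12.6% had a lower ratio. In the wild-type-labelled library *qSH1* had the highest level of the 6 genes, above 83.7% of the loci above 0, and in the *Osam1*-labelled library it came behind *OSH15* and *SH5*, and behind *OSH1* only with the *OSH1* models summed, above 61.5% of them. Whether fewer cells that express a gene or less RNA of it per cell lie behind a lower value cannot be told apart in RNA from whole spikelets.

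Of the 6 genes, 0 passed 2-fold upwards and 2 passed it downwards in the *Osam1*-labelled library. Over all 55337 loci, 9.57% passed it upwards and 11.2% downwards. Among the 7427 loci with a mean in the range of the 6 genes these shares were 16.1% and 18.5%. A ratio of the size seen at *OSH71* or *qSH1* was thus not rare in this range. The mean of *OSH71* is its lower end and that of *qSH1* its upper end, and shares close to either end were not computed. The median log2 ratio was 0.54 over the 6 genes and 0.019 over the loci with a mean in their range. With equal *OSH1* models counted once the median of the 6 genes was 0.15, and with the highest model 0.24.

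**Figure D3:**
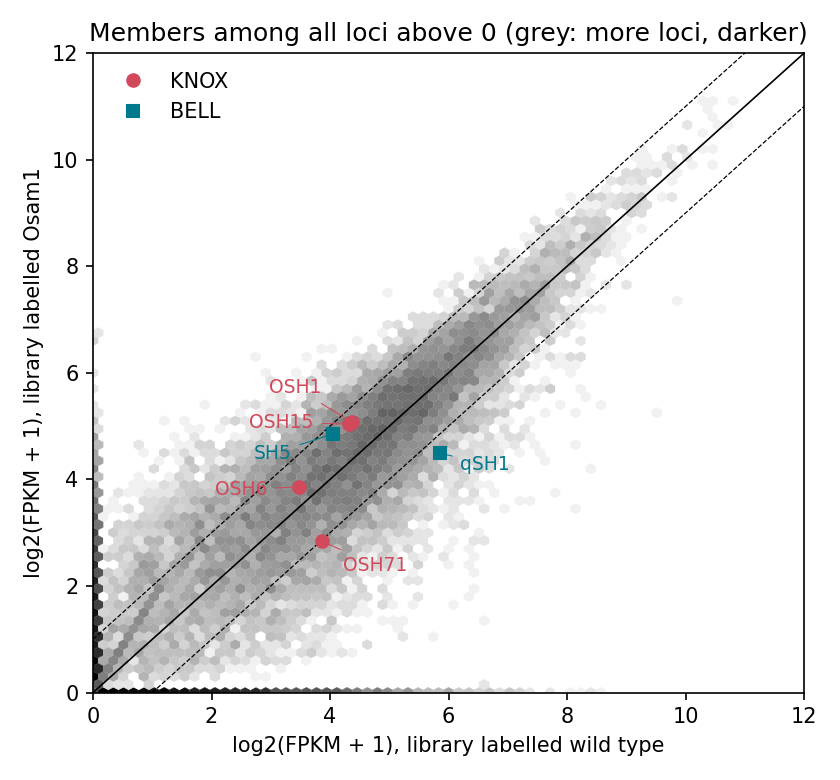
Each of the 6 genes in the plane of log2(FPKM + 1) in the *Osam1*-labelled library (vertical axis) and in the wild-type-labelled library (horizontal axis), over the density of all loci above 0 in at least 1 library (grey, loci beyond the axes not drawn). Circles are KNOX and squares BELL genes, the solid line marks equal values and the dashed lines 2-fold, and *qSH1* and *OSH71* lie beyond the lower dashed line at log2 ratios of -1.35 and -1.03.

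Ratios between genes of the same library do not depend on the scaling of that library. The *qSH1* level was 0.772 times that of *SH5* in the *Osam1*-labelled library and 3.63 times that of *SH5* in the wild-type-labelled library, a 4.70-fold shift within the BELL pair. It was 0.676 times that of *OSH15* in the *Osam1*-labelled library and 2.97 times in the wild-type-labelled library. *SH5* stood at 0.875 times the level of *OSH15* in the *Osam1*-labelled library and 0.818 times in the wild-type-labelled library, a shift of 1.07-fold. Small shifts were not particular to this pair, as *OSH71* relative to *qSH1*, also a KNOX and a BELL gene, shifted 1.18-fold. None of these shifts has a replicate, and neighbours in the order of the levels cannot be separated without one.

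The 6 genes together had 133.6 FPKM in the *Osam1*-labelled library and 134.7 FPKM in the wild-type-labelled library. With equal *OSH1* models counted once the sums were 117.3 FPKM in the *Osam1*-labelled library and 132.4 FPKM in the wild-type-labelled library, so that their near equality rested on the summed *OSH1* models. The 4 KNOX genes contributed 84.2 FPKM in the *Osam1*-labelled library and 62.5 FPKM in the wild-type-labelled library, which became 67.9 FPKM in the *Osam1*-labelled library and 60.2 FPKM in the wild-type-labelled library with equal *OSH1* models counted once. The 2 BELL genes contributed 49.5 FPKM in the *Osam1*-labelled library and 72.2 FPKM in the wild-type-labelled library. The ratio of KNOX to BELL FPKM was 1.70 in the *Osam1*-labelled library and 0.866 in the wild-type-labelled library. With equal *OSH1* models counted once it was 1.37 in the *Osam1*-labelled library and 0.834 in the wild-type-labelled library. *qSH1* alone made up 16.1% of the summed FPKM of the 6 genes in the *Osam1*-labelled library and 42.0% in the wild-type-labelled library.

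The levels spanned 6.14 to 32.6 FPKM in the *Osam1*-labelled library, a range of 5.31-fold, and 10.1 to 56.6 FPKM in the wild-type-labelled library, a range of 5.61-fold. Without *qSH1* the range stayed at 5.31-fold in the *Osam1*-labelled library and was 1.96-fold in the wild-type-labelled library, where the 4 KNOX genes and *SH5* lay close together.

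The number of fragments behind a value is not in the table, but the relative depth of 2.37 sets a lower limit where whole fragments were counted for a single model. The smallest whole numbers that give both values of *OSH71* within rounding were 4 fragments in the *Osam1*-labelled library and 21 in the wild-type-labelled library. For *qSH1* they were 9 in the *Osam1*-labelled library and 56 in the wild-type-labelled library, and for *SH5* 28 in the *Osam1*-labelled library and 37 in the wild-type-labelled library. *OSH15* allowed no fewer than 12 in the *Osam1*-labelled library and 17 in the wild-type-labelled library, and *OSH6* no fewer than 17 in the *Osam1*-labelled library and 30 in the wild-type-labelled library. If the relative depth is 2.37, any true numbers are these or larger. The next candidate for the relative depth, 1.18, would give other limits, which were not computed. For models 1 and 2 of *OSH1* the smallest pair was 3 fragments in the *Osam1*-labelled library and 1 in the wild-type-labelled library. Models of a locus may share fragments, and so small a pair limits little. How many fragments lie behind a single *OSH1* model is thus not known. None of the 6 loci shared both its values with another locus of the table.

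The ratios of the 5 genes with 1 model moved little with the processing, which was largely fixed in advance. For such a gene the ways of joining models leave the ratio as it is, and each scaling shifts all genes by nearly the same amount. The ranges below therefore say nothing of sampling error. Over the added values, scalings and ways of joining models, with the labels kept, the log2 ratio of *qSH1* lay between -1.42 and -1.35 and that of *OSH71* between -1.15 and -1.03. The ratio of *SH5* lay between 0.73 and 0.84, that of *OSH15* between 0.65 and 0.74 and that of *OSH6* between 0.33 and 0.42. The ratio of *OSH1* ran between -0.094 and 2.39.

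**Figure D4:**
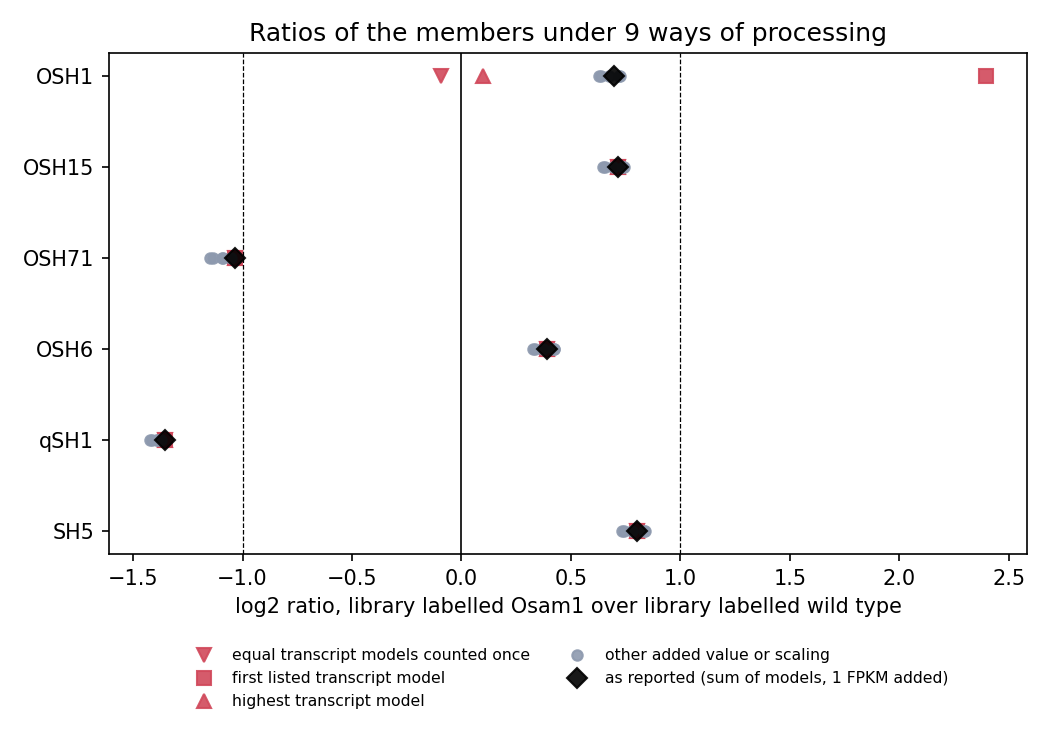
Log2 ratio of each gene (horizontal axis, *Osam1*-labelled library over wild-type-labelled library) under 9 ways of processing, with the labels kept; diamonds are the values as reported and dashed lines mark 2-fold. The symbols of the 5 genes with 1 model cluster, and the ways of joining models leave their ratios unchanged. The symbols of *OSH1* spread from -0.094 to 2.39.

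A list of 16 further loci, drawn up from general knowledge of the KNOX and BELL families and not from their values, was examined beside the 6 genes. The RefSeq gene table lists all 7 further KNOX names that were looked up but pairs no name with these loci, so they are given as counts and their membership of the families rests on the list. Of the 16 loci, 4 were listed at 0 in both libraries and 11 had a mean of at least 1 FPKM. At least 2-fold higher values in the *Osam1*-labelled library were found at 2 of the 16 and at least 2-fold lower values at 3. Over all loci, including those at 0 in both libraries, these shares were 9.57% and 11.2%, as above. Of the 27498 loci above 0 in at least 1 library, 5298 were higher and 6223 lower by at least 2-fold. The 2 higher and 3 lower loci of the list each have 2 or 3 transcript models, which were summed. Their single models are not given here, so these directions carry the doubt described for *OSH1*. Of the lower loci, 1 had only 0 FPKM in the *Osam1*-labelled library and 1.76 FPKM in the wild-type-labelled library. Where the mean reached 1 FPKM, the highest ratio in the list was that of LOC_Os03g51710, a log2 ratio of 1.43. Its 2 transcript models summed to 14.2 FPKM in the *Osam1*-labelled library and 4.62 FPKM in the wild-type-labelled library. The lowest was that of LOC_Os03g03164, with 6.47 FPKM in the *Osam1*-labelled library and 24.2 FPKM in the wild-type-labelled library over its 3 transcript models, a log2 ratio of -1.75. The median log2 ratio of the 11 loci was -0.39. Over all loci above 0 in at least 1 library it was -0.0096, but no minimum mean was set for these, so the sets are unlike.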

How the data were processed

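Poly(A) RNA of young panicles was made into nondirectional libraries with 18 cycles of PCR and sequenced from both ends with 100 bp reads. Adaptor and low-quality sequences were removed by the authors, who aligned the rest to the genome of the Rice Genome Annotation Project with SOAPaligner/soap2 and counted reads with ERANGE; the release of the annotation is not given in the sources used here. The deposited unit is FPKM with 2 decimals for each transcript model, whereas the Methods name RPKM. The table holds no depth per sample; read totals that the study gives were not used for any value. No columns were left out.

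Models were summed per locus (55337 loci, 65535 rows), and log2 ratios were taken with 1 FPKM added and no filter. Whether the deposited rows cover every locus of the annotation was not checked, so "all loci" means those deposited. With 1 library per genotype there was no test. Relative depth was read from the ratio steps of 4105 loci with 1 model and 1 to 10 FPKM in the *Osam1*-labelled library, by the likelihood of whole fragments, after a first method that misread a simulated table was replaced. The next candidate was 1.18. The limits on fragments allowed 0.1% on the relative depth. Calls and depth were tested on simulated data. The genes named are the 6 members, the extremes of the further list, *MEL1*, and the locus nearest to *OSH1*; *MIL1* was in the rule too and had 7.96 FPKM in the *Osam1*-labelled library and 4.48 FPKM in the wild-type-labelled library. Members, lists and alternatives were chosen with earlier results of these data known. The alternatives were added values of 0.1 and 0.01 FPKM, 3 scalings, the highest and the first listed model, exchanged labels, a mean of at least 1 FPKM and values above 0 in both libraries. RefSeq (assembly ASM3414082v1) served for names alone. It lists the 4 KNOX genes on the chromosomes of their loci. Neither BELL gene, *qSH1* or *SH5*, was found in it by name, so their loci were not checked in this way. Sequences were not used here. The software was Python 3.11.15 with pandas 2.3.3, numpy 2.4.6, scipy 1.17.1 and, for figures, matplotlib 3.10.9.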

Additional observations from a re-analysis of the deposited data

How the results depend on the processing

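With 1 library per genotype, genotype and library cannot be told apart. With the labels exchanged, the log2 ratios became 1.03 for *OSH71*, 1.35 for *qSH1*, -0.70 for *OSH1*, -0.71 for *OSH15*, -0.39 for *OSH6* and -0.80 for *SH5*. The *OSH1* ratio moved to 0.097 with the highest transcript model, to 2.39 with the first listed model and to -0.094 with equal models counted once, the last chosen after seeing the data; each setting takes other models of the locus. Its place among the 6 genes moved to 4 in both libraries with the highest model, and with equal models counted once to 4 in the *Osam1*-labelled library and 3 in the wild-type-labelled library. With loci above 0 in both libraries alone, 5669 loci passed 2-fold instead of 11521, 2881 of them higher and 2788 lower. The rest of the 11521 had a value of 0 in 1 library and were left out by this setting. The median log2 ratio of the 6 genes, 0.54 with summed models, was 0.24 with the highest model and 0.15 with equal models counted once. The other settings kept each gene on its side of 2-fold, with its direction. The scalings shifted the median log2 ratio by -0.065 to -0.019. No paired analysis was possible because each genotype has 1 library.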

Other observations

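In the order of locus numbers, the pair of loci on either side of each of the 6 genes gave 24 flanking loci, of which 15 had a value above 0. At least 2-fold higher values in the *Osam1*-labelled library were found at 5 of the 24 and at least 2-fold lower values at 4. The shares were 9.57% and 11.2% of all loci, which include those at 0 in both libraries. Among the 27498 loci above 0 in at least 1 library, 5298 were higher and 6223 lower by at least 2-fold. LOC_Os03g51710, beside *OSH1*, is also in the list of 16 further loci. Around *qSH1* 2 flanking loci were higher and 1 was lower, and around *OSH71* 1 was higher and 1 lower. *OSH15*, *OSH6* and *SH5* each stood beside 3 flanking loci listed at 0 in both libraries, and 1 flanking locus of each had a value above 0.

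The locus nearest to *OSH1* in the plane of both log2(FPKM + 1) values was LOC_Os02g02920 on chromosome 2, with 32.6 FPKM in the *Osam1*-labelled library and 19.9 FPKM in the wild-type-labelled library, at a distance of 0.013. The likeness is over 2 libraries only. *OSH15* lay at a distance of 0.058, with 20 loci nearer to *OSH1*, and the nearness rests on the summed models of *OSH1*.

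In the RefSeq gene table, *OSH3*, another KNOX gene, lies on chromosome 3 with 1 gene between it and *OSH1*. No value is given for *OSH3*, since the table pairs it with no locus of the expression table.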
